A study of Mus musculus with 9 samples.

Results

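The AP-1 transcription factor family was followed here through 10 member genes: the Fos genes Fos, Fosb, Fosl1 and Fosl2, the Jun genes Jun, Junb and Jund, and the related genes Batf, Batf2 and Atf3. The members were the entries of the deposited count table that carry these names, 10 of 57238 entries in all. RNA sequencing had been done on bone marrow-derived dendritic cells (BMDCs) in 3 groups of 3 libraries each. All cells came from wildtype C57BL/6 mice and were grown from bone marrow with 20 ng/ml of the growth factor GM-CSF for 6 days by the labels. The control (CTR) group was left untreated. For the other groups, the cells were given exosomes for 24 hours, either normal exosomes (NE) shed by the mouse fibroblast line NIH-3T3 or tumor-derived exosomes (TDE). Exosomes are small membrane vesicles that cells shed and other cells take up. The labels name neither the tumor cell line nor the mice or cultures behind each library, so that the p-values measure only the spread between these libraries, which may be technical.

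AP-1 is not one protein but a set of pairs. Each member has a basic region that touches DNA and a leucine zipper that holds its partner, and a Fos protein needs a Jun protein to bind, whereas Jun proteins can also pair with each other, with Batf proteins or with Atf3. Several members are immediate early genes, switched on within minutes of a stimulus by kinases of the MAP kinase cascades and switched off soon after. In dendritic cells and macrophages the family is known for its part in cytokine and protease genes, and Batf proteins for pairing with the interferon regulatory factors Irf4 and Irf8.

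Of the 10 members, 3 were higher in TDE-treated than in CTR BMDCs (Fosl1, Atf3 and Junb) and 1 was lower (Fosb). The edgeR quasi-likelihood test across 15028 genes, with a Benjamini-Hochberg adjusted p under 0.05 as the threshold, called 16.9% of all genes in this comparison, 7.57% higher and 9.34% lower. The same 4 genes were called in the same directions in TDE-treated against NE-treated BMDCs, where 13.9% of all genes were called, 6.73% higher and 7.21% lower. Both comparisons use the same 3 TDE libraries. Fosl1 passed the filter on low counts, described below, only through these libraries. Fosb passed it only through the CTR and NE-treated libraries. No member was called between NE-treated and CTR BMDCs, where 0.0% of all genes were. Without the first control library, described next, Fosl2, Jun and Batf were called higher as well in both comparisons with TDE. Of all genes, 34.4% were then called in TDE against CTR and 40.7% in TDE against NE. Fos, the gene that names the family, did not pass the test in any of the 3 comparisons with or without that library.

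Control replicate 1 stood apart from the other 8 libraries. Its highest correlation with another library on the log2 scale was 0.9, against a lowest value of 0.941 among the other 8. Mitochondrial genes took 1.02% of its reads against 2.52% to 2.91% elsewhere. Its values also moved with gene length: against the mean of the other 2 control libraries, the median gene was 0.83 higher on the log2 scale in the 5010 shortest genes (up to 1928 bases), while it was -0.68 in the 5009 longest (from 3475 bases). Among the members, Batf (955 bases, 1.56), Jund (1668 bases, 1.48) and Batf2 (1391 bases, 1.32) stood high in that library on the same log2 scale, and Fos (2108 bases, -1.21), Fosl2 (6537 bases, -1.14) and Jun (3189 bases, -0.95) stood low. Fosb, with 3782 bases and 0.77, did not follow this order. Fos, with 2108 bases, did not either. Its value was the lowest of the members, while the median gene of 1928 to 3474 bases was at -0.07. The members' values in TDE against CTR are therefore given with and without control replicate 1. In a further fit, chosen after the data were seen, a curve of expression on gene length was removed from every library. It called the same 7 members as the fit without that library, in both comparisons with TDE. All genes called were then 24.9% in TDE against CTR and 21.1% in TDE against NE.

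Every library held between 17469782 and 21092943 estimated reads, so that 3 reads correspond to between 0.142 and 0.172 reads per 1000000 (CPM) by library totals. On the TMM-normalized scale of the levels given here, 3 reads correspond to between 0.135 CPM (control replicate 2) and 0.19 CPM (control replicate 1). Library totals in place of TMM factors moved the median of all genes by 0.12 on the log2 scale in NE against CTR, and by at most 0.06 in the other comparisons. The label was checked against dendritic cell markers. Of 9 markers, none was at 0 in every library, and their summed level was 3364 to 11309 CPM in CTR, 3228 to 4063 in NE-treated and 1680 to 1775 in TDE-treated libraries. The highest sum was that of control replicate 1, where Cd74 alone stood at 8675.5 CPM. The mean of Cd74 was 4454.9 CPM in CTR and 866.8 CPM with TDE. Cd209a, with 3 or fewer reads in each CTR and NE-treated library, was at 0 in all 3 TDE libraries, whereas Itgax, which encodes CD11c, stood at 107.3 to 115.3 CPM there. Cd74, Ccr7, H2-Ab1 and Cd86 were the 4 dendritic cell markers called lower in TDE against CTR, of 8 tested. Flt3 (log2 fold change 0.02), Cd80 (-0.15), Zbtb46 (-0.32) and Itgax (-0.41) were not called. Without control replicate 1, 6 of the 8 were called lower, beside 18.0% of all genes. Summed neutrophil markers were 6943 to 27993 CPM in CTR, 7323 to 10573 in NE-treated and 3020 to 3311 in TDE-treated libraries, the highest value being control replicate 1. Of 8 neutrophil markers, 7 were called lower in TDE against CTR, as were 7 of 7 markers of eosinophils, basophils and mast cells. Of all genes, 9.34% were called lower there. Summed macrophage markers were 3677 to 4315 CPM in CTR, 3486 to 3855 in NE-treated and 4963 to 5317 in TDE-treated libraries, and of these 8 genes Adgre1, which encodes F4/80, was called higher (log2 fold change 2.56) and C1qb lower (-1.95). The rise of that sum was carried by Adgre1, at a mean of 377.6 CPM in CTR and 2229.1 CPM with TDE, while the median log2 fold change of the 8 genes was -0.44, and 2 were called higher and 5 lower without control replicate 1. In bulk RNA, fewer cells of a type and less RNA per cell cannot be told apart, and the part of these shifts in the member results was not tested.

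**Figure D1:**
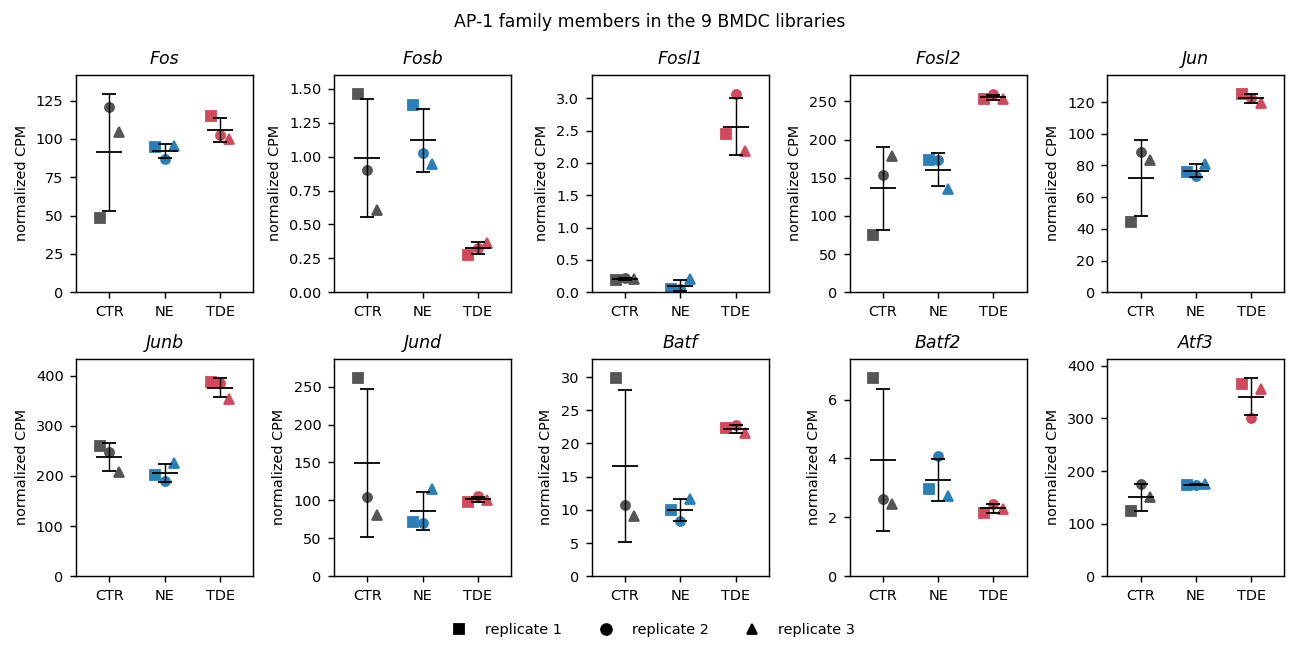
Each panel plots normalized CPM on the y axis for 1 AP-1 member in CTR, NE-treated and TDE-treated BMDCs, with squares, circles and triangles for replicates 1, 2 and 3, and a black bar for mean and SD (n = 3). TDE libraries sit above all CTR and NE-treated libraries for Fosl1, Fosl2, Jun, Junb and Atf3 and below them for Fosb and, narrowly, Batf2, while the square of control replicate 1 lies away from its group for Fos, Fosl2, Jun, Jund, Batf and Batf2.

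All 10 members reached the model, but not through the same libraries. The filter on low counts asked for 0.541 CPM in enough libraries for the smallest group. Fosl1 exceeded it in 0 of 3 CTR, 0 of 3 NE-treated and 3 of 3 TDE-treated libraries, and Fosb in all 6 CTR and NE-treated but 0 of 3 TDE-treated libraries, whereas the other 8 exceeded it in all 9. Fosl1 could therefore enter only by differing between groups, and the counts of members called are a description. Of the 8 members with at least 10 reads in every library, 2 (Junb and Atf3) were called in either comparison with TDE when the fit was limited to such genes, where 17.7% of all genes were called in TDE against CTR and 14.5% in TDE against NE.

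The promoters show where the immediate early members carry the DNA letters that AP-1 related factors are known to read. The 250 bases before the RefSeq start (GRCm38.p6) were searched on both strands in the 8 members with an entry, and the windows below are shown because they hold the motifs found, in capitals, with the gene's own strand 5′ to 3′. The motif TGACGT, the main part of the cyclic AMP response element, was found in Fos, Batf and Atf3, and in 6.47% of all 32851 promoters of the same length. The variant TGACATCA, the classical Jun and Atf2 site of the Jun promoter, was found in Jun and in 2.93% of all promoters. Atf3 also held a composite of the C/EBP and ATF type, TGATGNAA (3.45% of all promoters), and Fos a TATAAA box (12.4%).
Fos, chr12:85473810-85473843, plus strand, 61 to 66 bases before the start: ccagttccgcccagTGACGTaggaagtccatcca
Fos, chr12:85473843-85473876, plus strand, 28 to 33 bases before the start: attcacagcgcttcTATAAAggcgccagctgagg
Jun, chr4:95052246-95052281, minus strand, 38 to 45 bases before the start: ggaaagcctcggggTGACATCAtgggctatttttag
Batf, chr12:85686608-85686641, plus strand, 93 to 98 bases before the start: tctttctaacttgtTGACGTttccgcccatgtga
Atf3, chr1:191183334-191183355, minus strand, 3 to 8 bases before the start, motif on the opposite strand: ctattaatagcattACGTCAgc
Atf3, chr1:191183422-191183457, minus strand, 103 to 110 bases before the start, motif on the opposite strand: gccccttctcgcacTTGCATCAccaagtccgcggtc
The AP-1 site itself (TGACTCA or TGAGTCA, 4.46% of all promoters), the full cyclic AMP response element TGACGTCA (1.55%), a kB site (GGG, any 3 bases, then TTCC, 4.65%) and the CArG box (1.47%) were in none of these 8 windows. Fosb, Fosl2, Junb and Jund held none of the motifs searched. The motif TGACGT is contained in TGACGTCA, and the RefSeq start used for Atf3 lies inside the longer GENCODE interval of the gene. Sequence farther than 250 bases before the start was not searched, so an absence holds for these windows only. A match is a description of letters and not of a bound site. Of the members with a TGACGT promoter window, Atf3 was called higher, Batf only without control replicate 1, and Fos in neither fit. A link between the motif and these values was not tested.

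Fos encodes c-Fos, the prototype of the family and a partner of the Jun proteins (chr12:85473890-85477273, plus strand, 4 exon blocks in GENCODE vM21 on GRCm38, the source of all gene positions here). Its normalized level was 48.4, 120.7 and 104.4 CPM in CTR replicates 1 to 3, 94.6, 87.1 and 95.2 CPM in NE-treated and 114.7, 102.8 and 100.04 CPM in TDE-treated libraries. The TDE libraries overlapped with CTR, where replicate 1 alone was low, and all lay above NE-treated. By edgeR the log2 fold change was 0.22 (SE 0.291, adjusted p = 0.61) for TDE against CTR and 0.20 (adjusted p = 0.772) for TDE against NE. The TDE against CTR value turned to -0.10 (adjusted p = 0.459) without control replicate 1. Fos mRNA was thus among the more abundant messages, at percentile 87.1 of tested genes in CTR and 89.7 in TDE-treated cells per length of gene, with no difference that passed the test.

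Fosb encodes a close relative of c-Fos and is likewise an immediate early gene (chr7:19302696-19310051, minus strand). It stood at 1.46, 0.903 and 0.605 CPM in CTR, 1.38, 1.03 and 0.945 CPM in NE-treated and 0.277, 0.328 and 0.366 CPM in TDE-treated libraries. All TDE libraries lay below all 6 others. Fosb fell by 1.58 on the log2 scale in TDE against CTR (SE 0.408, edgeR adjusted p = 0.0337) and by 1.77 in TDE against NE (SE 0.406, adjusted p = 0.0226). These values rest on 18 reads in the 3 TDE libraries, 55 in CTR and 64 in NE-treated libraries. As Fosb passed the filter on low counts only through its CTR and NE-treated libraries, these calls are a description and no added support. The ratio to CTR was 0.341 with a 95% exact interval of 0.188 to 0.589 that covers counting error only. With control replicate 1 left out, the TDE against CTR value was -1.22 (adjusted p = 0.0389). The call was lost in 7 of the 9 fits that left out 1 library, with an adjusted p of up to 0.131.

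Fosl1 encodes Fra-1, a Fos protein without the transactivation domain of c-Fos and itself a known AP-1 target (chr19:5447547-5455946, plus strand). Its level was 0.190, 0.226 and 0.202 CPM in CTR, 0.0531, 0.0542 and 0.199 CPM in NE-treated and 2.44, 3.06 and 2.19 CPM in TDE-treated libraries. Every TDE library was above every other library, and the control values were near or under 3 reads. Fosl1 rose by a log2 fold change of 3.59 in TDE against CTR (SE 0.432, edgeR adjusted p = 0.00136), or 12.0-fold, and by 4.54 in TDE against NE (SE 0.470, adjusted p = 0.00063). Reads summed to 142 in TDE, 12 in CTR and 6 in NE-treated libraries, and the ratio to CTR was 12.3 with a 95% exact interval of 6.84 to 24.4 for counting error. The ratio to NE-treated libraries was 24.5 with an interval of 11.0 to 67.8, and the log2 fold change against NE was 5.42 without NE replicate 3 and 3.68 with a prior count of 2. Without control replicate 1 the value against CTR was 3.53 (adjusted p = 0.000416), and the call held in 9 of 9 fits that left out 1 library. As Fosl1 passed the filter on low counts only through its TDE libraries, these calls are a description and no added support. The exons of Fosl1 overlap those of Ccdc85b on the opposite strand over 1163 bases, and whether the counting used strand is not given in the sources used here, so that reads of this gene pair may not have been told apart. Per length of gene, Fosl1 moved from percentile 1.55 of tested genes in CTR to 25.5 in TDE-treated cells and remained among the scarce members.

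Fosl2 encodes Fra-2, the other Fra protein (chr5:32135801-32157842, plus strand). It was measured at 75.5, 153.3 and 179.0 CPM in CTR, 173.1, 172.7 and 135.5 CPM in NE-treated and 253.8, 259.3 and 253.8 CPM in TDE-treated libraries. No TDE library overlapped with the other groups, and the lowest value was control replicate 1. The log2 fold change was 0.91 in TDE against CTR (SE 0.287, edgeR adjusted p = 0.0637) and 0.67 in TDE against NE (adjusted p = 0.178), neither of which passed. Without control replicate 1, Fosl2 was called higher in both, by 0.61 (adjusted p = 0.00415) and 0.66 (adjusted p = 0.00108).

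Jun encodes c-Jun, one of the Jun proteins that can partner Fos proteins and a substrate of the JNK kinases (chr4:95049034-95052222, minus strand, 1 exon). Its level was 44.6, 88.7 and 83.5 CPM in CTR, 75.8, 73.1 and 81.1 CPM in NE-treated and 124.9, 122.5 and 119.6 CPM in TDE-treated libraries. The TDE libraries stood close together and above all others. For TDE against CTR the log2 fold change was 0.76 (SE 0.237, edgeR adjusted p = 0.0617), and for TDE against NE it was 0.67 (SE 0.236, adjusted p = 0.104). Both were called without control replicate 1, at 0.50 (adjusted p = 0.00111) and 0.67 (adjusted p = 7.53e-05). Jun shares 232 exonic bases with the antisense gene Junos.

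Junb encodes a Jun protein with weaker transactivation than c-Jun and had the highest mean level of the family per length of gene in each group, with libraries that overlapped with those of Jund in CTR (chr8:84974484-84978718, minus strand). It stood at 259.7, 246.6 and 207.5 CPM in CTR, 201.2, 189.7 and 225.7 CPM in NE-treated and 387.7, 384.6 and 353.5 CPM in TDE-treated libraries. Control replicate 1 lay near its group here, and the lowest TDE library exceeded the highest of the other 6 by more than the range of those 6. Junb rose by 0.66 on the log2 scale in TDE against CTR (SE 0.140, edgeR adjusted p = 0.0158), 1.58-fold, and by 0.87 in TDE against NE (SE 0.140, adjusted p = 0.00496), 1.83-fold. Without TDE replicate 1, 2 or 3 the call against CTR was lost, with an adjusted p of 0.0743, 0.0698 and 0.0534 and log2 fold changes of 0.64 to 0.71, whereas without control replicate 1 it stood at 0.72 with an adjusted p of 0.000894. In TDE against NE the call held in 9 of 9 such fits. Its exons share 173 bases with Prdx2 on the opposite strand.

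Jund encodes the Jun protein that resting cells hold most constantly (chr8:70698949-70700616, plus strand, 1 exon). Levels were 260.8, 104.8 and 81.3 CPM in CTR, 71.4, 70.8 and 114.7 CPM in NE-treated and 97.6, 105.4 and 100.6 CPM in TDE-treated libraries. Control replicate 1 was more than double the next library, and the groups otherwise overlapped. The log2 fold change of -0.56 in TDE against CTR (edgeR adjusted p = 0.354) turned to 0.11 (adjusted p = 0.715) without that library, and it was 0.24 (adjusted p = 0.816) in TDE against NE. Of its 1668 exonic bases, 877 are shared with the antisense gene Gm11175.

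Batf encodes a factor without a transactivation domain of its own that pairs with Jun proteins and with Irf4 or Irf8 (chr12:85686669-85709087, plus strand). Its level was 29.8, 10.8 and 9.03 CPM in CTR, 10.03, 8.30 and 11.7 CPM in NE-treated and 22.4, 22.8 and 21.5 CPM in TDE-treated libraries. The TDE libraries lay above all NE-treated ones and above control replicates 2 and 3, but below control replicate 1. With all libraries the log2 fold change was 0.43 in TDE against CTR (SE 0.409, edgeR adjusted p = 0.467) and 1.15 in TDE against NE (SE 0.415, adjusted p = 0.113). Without control replicate 1 Batf was called in both, at 1.15 (SE 0.146, adjusted p = 0.00039) and 1.14 (adjusted p = 0.000141), a 2.22-fold difference from CTR. With the length curve removed, the values were 1.07 (adjusted p = 0.0009) and 1.21 (adjusted p = 0.000495).

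Batf2 encodes a relative of Batf that is known as an interferon-inducible gene (chr19:6140983-6172476, plus strand). It stood at 6.72, 2.62 and 2.47 CPM in CTR, 2.97, 4.07 and 2.73 CPM in NE-treated and 2.16, 2.46 and 2.30 CPM in TDE-treated libraries. Every TDE library was below every other library, by a margin that was small against control replicates 2 and 3. The log2 fold change of -0.76 in TDE against CTR (SE 0.400, edgeR adjusted p = 0.207) shrank to -0.15 (adjusted p = 0.646) without control replicate 1, and it was -0.50 (adjusted p = 0.52) in TDE against NE. Batf2 was the only member besides Fosb whose libraries all lay lower with TDE. It shares 51 exonic bases with Arl2.

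Atf3 encodes a stress-inducible factor that can pair with Jun proteins and is known to restrain inflammatory genes (chr1:191170296-191218039, minus strand). Its level was 124.2, 175.1 and 151.4 CPM in CTR, 173.9, 172.7 and 174.7 CPM in NE-treated and 365.7, 300.6 and 356.3 CPM in TDE-treated libraries. The lowest TDE library was well above the highest of the other 6, and the NE-treated libraries were nearly equal. Atf3 rose by 1.18 on the log2 scale in TDE against CTR (SE 0.159, edgeR adjusted p = 0.00235), 2.27-fold, and by 0.97 in TDE against NE (SE 0.158, adjusted p = 0.00516), 1.96-fold. Without control replicate 1 the value against CTR was 1.05 (adjusted p = 8.75e-05). The call held in 9 of 9 fits without 1 library and under all 10 other settings tried, in both comparisons.

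**Figure D2:**
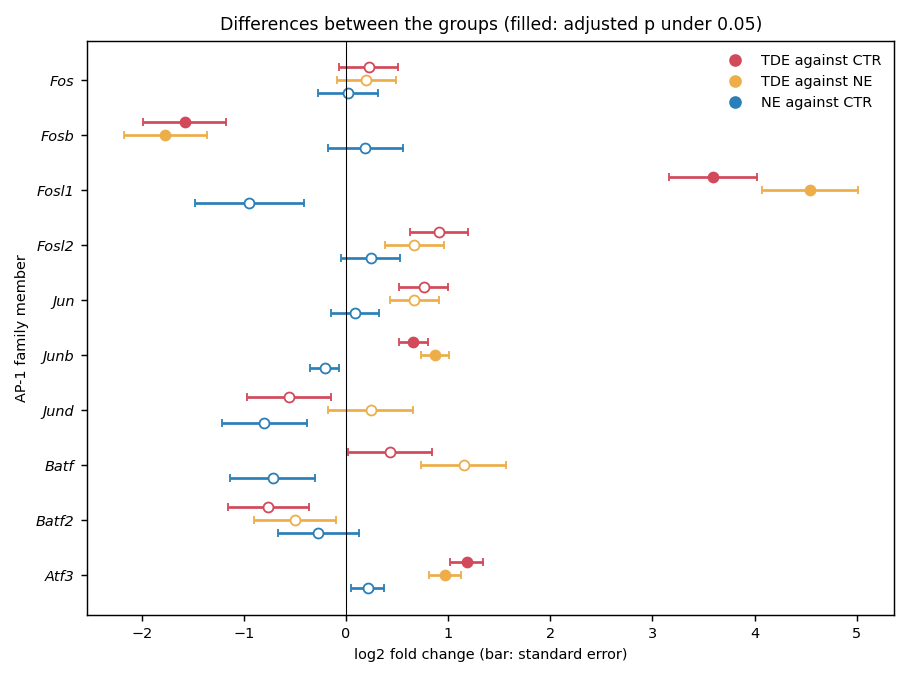
The x axis gives the log2 fold change of each AP-1 member with its standard error as a bar, for TDE against CTR, TDE against NE and NE against CTR, and filled points mark an edgeR adjusted p under 0.05. Fosl1, Atf3 and Junb are filled to the right of 0 and Fosb to the left in both comparisons with TDE, and no point is filled for NE against CTR.

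Exosomes from NIH-3T3 cells left no member past the test. In NE against CTR the edgeR log2 fold changes ran from -0.95 for Fosl1 (adjusted p = 0.659), on 6 against 12 reads, to 0.24 for Fosl2 (adjusted p = 0.678). In that fit of all libraries no member had an unadjusted p under 0.05, whereas by limma voom 5 members did and without control replicate 1 Fos did (log2 fold change -0.29, edgeR unadjusted p = 0.0134, adjusted p = 1.0). No member was called after adjustment by edgeR, DESeq2 or limma voom. The libraries of no member separated, where 7.71% of all genes did. Leaving out control replicate 1, the libraries of 5 of 10 members separated, with Fosb and Batf2 higher and Fos, Fosl1 and Jun lower in NE-treated cells, where 13.2% of all genes did (6.33% above and 6.85% below). Over all genes, edgeR called 0 with 487 at an unadjusted p under 0.05, DESeq2 called 6 and limma voom 18. A difference that misses the threshold is not shown to be absent, as the standard errors of 0.139 for Junb and 0.414 for Jund make plain.

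Counted by separation alone, 7 of 10 members had TDE libraries that did not overlap with CTR, 5 above and 2 below, where 44.0% of all tested genes did so (22.2% above and 21.8% below). Against NE-treated libraries 9 of 10 members separated, 7 above and 2 below, where 54.5% of all genes did (26.8% above and 27.7% below). Jund alone overlapped. With control replicate 1 left out, 8 of 10 members separated from CTR, 6 above and 2 below, where 63.0% of all genes did (30.8% above and 32.2% below). The median log2 fold change of the members was 0.54 in TDE against CTR, beside -0.05 over all tested genes, and 0.67 in TDE against NE, beside -0.02. Without control replicate 1, 7 members were called in each comparison, 6 higher and 1 lower, where 34.4% of all genes were called in TDE against CTR (16.4% higher and 18.0% lower) and 40.7% in TDE against NE (19.2% higher and 21.5% lower). No member was called in NE against CTR then, where 0.0196% of all genes were.

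**Figure D3:**
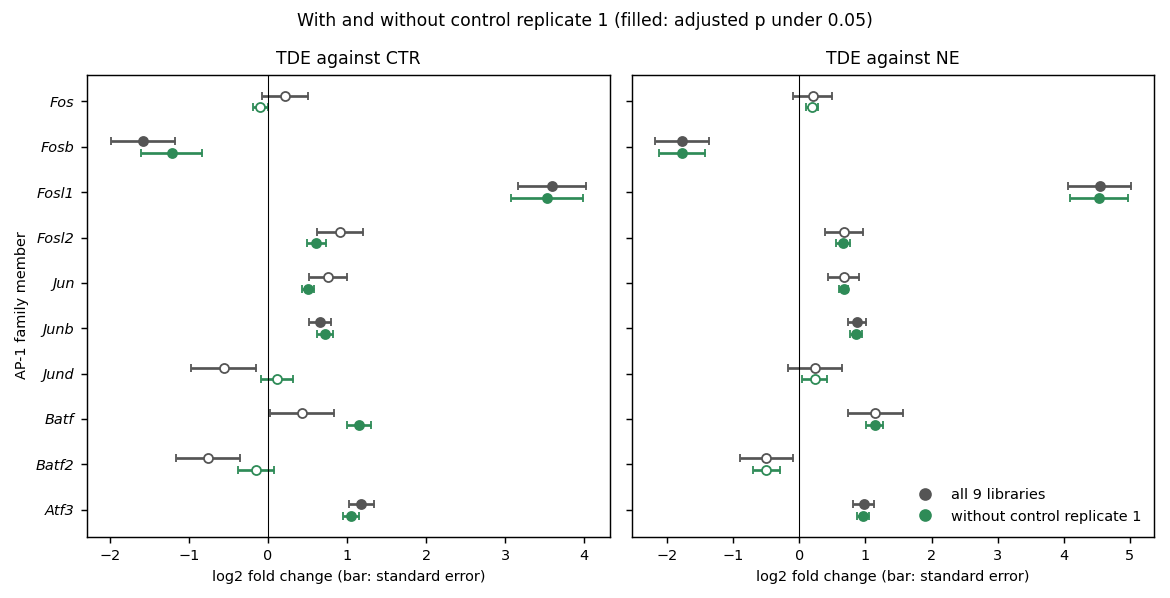
Log2 fold changes of the members are plotted on the x axis with standard errors, for TDE against CTR on the left and TDE against NE on the right, in the fit of all 9 libraries and in the fit without control replicate 1. Filled points mark an edgeR adjusted p under 0.05. Fosl2, Jun and Batf become filled without that library, and Fos and Jund change side of 0 in TDE against CTR.

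Compared per length of gene, the family was dominated by a few members. In CTR the mean level was 131.5 ± 15.0 CPM per kb for Junb (SD, n = 3), 89.3 ± 58.5 for Jund, 75.7 ± 12.8 for Atf3 and 43.2 ± 18.0 for Fos, followed by Jun (22.7), Fosl2 (20.8) and Batf (17.3), and then by Batf2 (2.83), Fosb (0.261) and Fosl1 (0.110) at far lower levels. Neighbours from Junb to Atf3 and from Fos to Batf overlapped in their ranges over the CTR libraries, whereas Atf3 lay above Fos in every library. Within each CTR library, Junb lay above Atf3 and Fos above Jun. The other neighbours that overlapped changed order between CTR libraries. In TDE-treated BMDCs the order was Junb (207.5), Atf3 (171.8), Jund (60.7), Fos (50.2), Fosl2 (39.1), Jun (38.4), Batf (23.3), Batf2 (1.66), Fosl1 (1.38) and Fosb (0.0855), where Fosl2 and Jun, and Batf2 and Fosl1, overlapped. Atf3 lay above Jund in every TDE library and, at a mean of 87.6 against 51.3, in every NE-treated library. In CTR they overlapped only through control replicate 1, where Jund stood at 156.4 CPM per kb. In the other control libraries Atf3 lay above Jund as well. Summed exon lengths of GENCODE vM21 in place of the table's lengths changed the order only of neighbours whose libraries overlapped, Jun and Fosl2 in NE-treated and TDE-treated cells and Batf2 and Fosl1 in TDE-treated cells.

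The summed level of the 10 members was 447.5, 409.5 and 354.3 CPM per kb in CTR, 349.8, 336.9 and 387.5 in NE-treated and 616.0, 581.5 and 584.6 in TDE-treated libraries. All TDE sums were above all others. Batf, Batf2 and Atf3 together made up 22.0% to 24.8% of the sum in CTR, 26.4% to 29.3% in NE-treated and 30.5% to 34.9% in TDE-treated libraries. Fos genes took 19.8% and 21.8% in control replicates 2 and 3, only 7.82% in control replicate 1, 17.1% to 20.5% in NE-treated and 15.0% to 15.5% in TDE-treated libraries. Jun genes held 50.2% to 54.0% with TDE and 50.5% to 56.5% with NE. In CTR they held 55.4% and 53.5% in control replicates 2 and 3, and 70.1% in control replicate 1. These shares are a description, given for lengths from the deposited table.

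**Figure D4:**
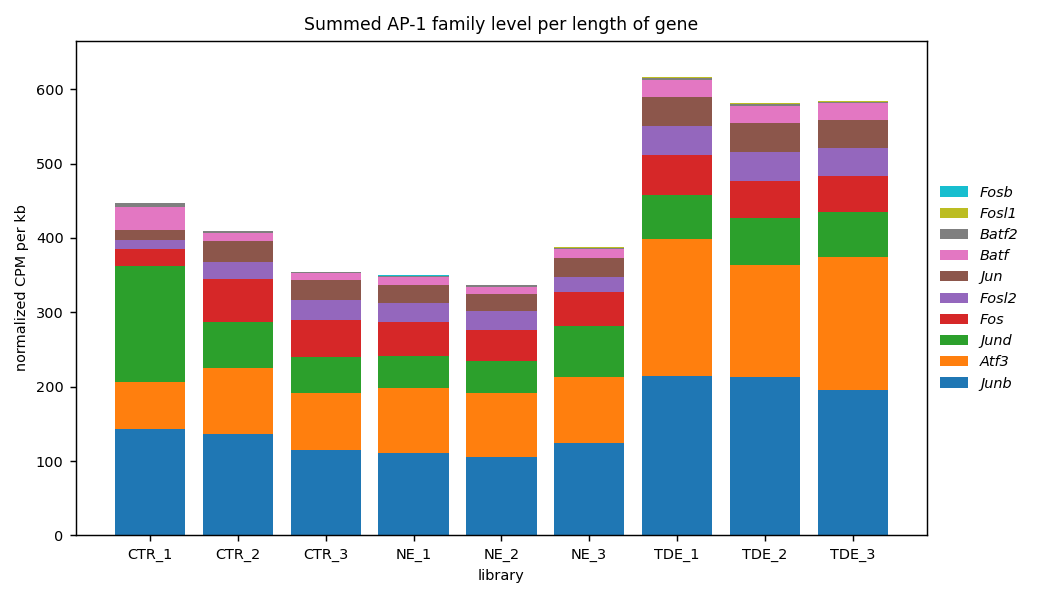
Stacked bars give the level of each AP-1 member in normalized CPM per kb of gene length (y axis) in each of the 9 libraries (x axis). The 3 TDE bars reach 581.5 to 616.0 against 336.9 to 447.5 in the other libraries, and the Jund segment of control replicate 1 is wider than in any other bar.

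Of 14 other basic leucine zipper partners, 1 rose and 2 fell in TDE against CTR (edgeR), beside 16.9% of all genes called, and 2 rose and 3 fell without control replicate 1, beside 34.4%. Maff, a small Maf protein without a transactivation domain, rose from 5.15 ± 1.22 to 13.6 ± 0.959 CPM (SD, n = 3), by 1.40 on the log2 scale (adjusted p = 0.00541). Nfe2, known from the megakaryocyte and erythroid lineages, fell by 1.35 (adjusted p = 0.0464), or by 0.69 (adjusted p = 0.00247) without control replicate 1. In TDE against NE, 1 of the 14 rose and 2 fell, beside 13.9% of all genes called. Batf3, the Batf relative required for cross-presenting dendritic cells, was at 102.0, 23.0 and 16.1 CPM in CTR and at 14.4 to 18.8 CPM with TDE, with a log2 fold change of -1.55 (adjusted p = 0.121) that was -0.29 (adjusted p = 0.326) without control replicate 1. This gene is named for its kinship with Batf and after its values were seen. Neither of the 2 partner genes of Batf, Irf4 (0.56) and Irf8 (0.29), passed with all libraries (both at an adjusted p of 0.116), and both were called higher without control replicate 1, by 0.32 (adjusted p = 0.0342) and 0.31 (adjusted p = 0.0112).

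Of 23 upstream kinases and factors 21 were tested, and 1 rose and 2 fell in TDE against CTR, beside 16.9% of all genes called. Map2k6, a kinase that activates p38, rose from 5.11 ± 0.749 to 10.5 ± 1.12 CPM (SD, n = 3), by 1.03 on the log2 scale (edgeR adjusted p = 0.00634). Map2k3, the other p38-activating kinase of its kind, fell by 0.55 (adjusted p = 0.0375), and Mapk13, a p38 kinase, fell by 2.06 (adjusted p = 0.0344), with control replicate 1 at 105.3 CPM against 22.9 and 29.2 CPM in the other control libraries. Leaving it out, Mapk13 fell by 1.06 (adjusted p = 0.00127), and 4 genes of the list rose and 3 fell, beside 34.4% of all genes called. In TDE against NE, 1 rose and none fell, beside 13.9% of all genes called.

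Other immediate early genes split. Of 17 tested, 3 rose and 5 fell in TDE against CTR, beside 16.9% of all genes called (7.57% higher and 9.34% lower). The median log2 fold change was -0.34 beside -0.05 over all genes. Ier3, an early gene tied to cell survival, rose from 38.4 ± 3.53 to 147.2 ± 6.76 CPM (SD, n = 3), by 1.94 (edgeR adjusted p = 0.000143). Nr4a2, a nuclear orphan receptor, rose by 1.37 (adjusted p = 0.0166), and Dusp1, a phosphatase that switches MAP kinases off, by 0.98 (adjusted p = 0.0222). Nr4a3, a relative of Nr4a2, fell by 1.23 (adjusted p = 0.000469). Egr1 and Egr2, zinc finger factors induced through the same kinases as Fos, fell by 1.30 (adjusted p = 0.00107) and 0.93 (adjusted p = 0.0114), Egr1 from 14.8, 16.7 and 14.5 CPM to 7.04, 6.00 and 5.64 CPM. Myc fell by 0.57 (adjusted p = 0.0259), and Ier5 was the remaining gene that fell. Thus Fosb, Egr1, Egr2, Nr4a3 and Myc were lower after 24 hours, while Fosl1, Junb, Atf3, Ier3, Nr4a2 and Dusp1 were higher in the same libraries. Leaving out control replicate 1, 3 rose and 8 fell, beside 34.4% of all genes called (16.4% higher and 18.0% lower).

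Textbook AP-1 target genes also went both ways. Of 20 listed and 19 tested, 8 rose and 6 fell in TDE against CTR, beside 16.9% of all genes called, with a median log2 fold change of 0.20. Leaving out control replicate 1, 9 rose and 7 fell, beside 34.4%, with a median of 0.77. Ptgs2, which encodes the prostaglandin enzyme COX-2, rose from 1.14, 1.81 and 1.41 CPM in CTR to 106.2, 62.8 and 93.4 CPM with TDE, by 5.89 (edgeR adjusted p = 6.13e-05), and stood at 0.845 to 1.41 CPM in NE-treated libraries. The cytokine gene Il1b rose by 2.46 (adjusted p = 0.000378) and Hmox1, encoding heme oxygenase, by 1.81 (adjusted p = 0.00062). The metalloproteinase genes Mmp13, Mmp12 and Mmp9 fell, with Mmp13 lower by 2.43 (log2 fold change -2.43, adjusted p = 0.000476), Mmp12 by 1.58 (-1.58, adjusted p = 0.00062) and Mmp9 by 0.84 (-0.84, adjusted p = 0.00249), as was Spp1, encoding osteopontin (-1.93, adjusted p = 0.000367). Mmp14, another metalloproteinase of the list, named after its values were seen, rose by 1.05 (adjusted p = 0.00466). In TDE against NE, 9 rose and 7 fell, beside 13.9% of all genes called, and in NE against CTR none of the 19 was called.

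**Figure D5:**
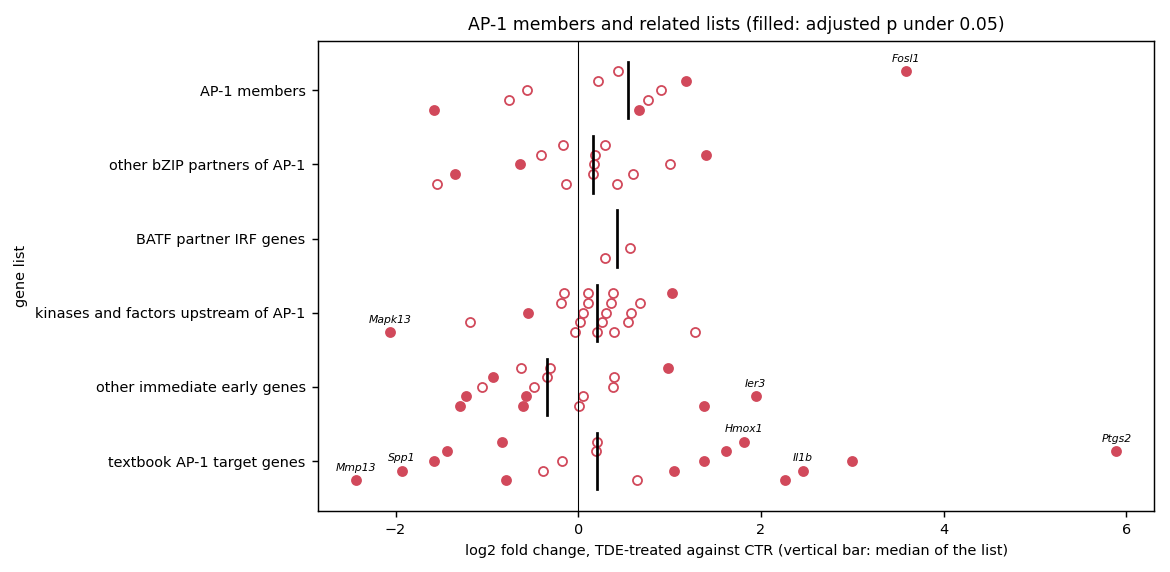
Each point is 1 gene placed by its log2 fold change in TDE against CTR (x axis), in rows for the AP-1 members and 5 related gene lists, with filled points for an edgeR adjusted p under 0.05 and a vertical bar at the median of each list. Filled points lie on both sides of 0 in every row except that of the Batf partners Irf4 and Irf8, which has none. Ptgs2 at 5.89 and Mmp13 at -2.43 are the ends of the target list.

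The genes whose pattern over the 9 libraries came nearest to a member were found by the root mean square difference of centred log2 levels, over genes of at least 1 CPM. Nearest to Fos were Arf6 (0.0965) and Ccdc117 (0.0986), and nearest to Jun were Zfp874a (0.0569) and Mxi1 (0.0596). Nearest to Batf were Eif4ebp1 (0.1003) and Pard6a (0.105), which shared its high value in control replicate 1, at 112.2 and 9.38 CPM. Nearest to Atf3 were Slc31a1 (0.0762) and Osm (0.10), Slc31a1 being at 55.3 to 71.0 CPM in CTR and 133.4 to 146.2 CPM in TDE-treated libraries. These distances are descriptions over 9 libraries that share treatment groups.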

How the data were processed

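RNA was extracted from CTR, NE-treated and TDE-treated BMDCs and sequenced on an Illumina instrument. Reads were aligned with TopHat2 version 2.1.1 per the submitters' processing notes. The read counter, strand setting, genome build and annotation are not given in the sources used here. The authors deposited estimated counts (expected counts) per gene without normalization, together with group means, which were not used.

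The values were first rounded to integers. After filterByExpr and TMM scaling, genes were tested with edgeR 4.0.16 (R 4.3.3) by the quasi-likelihood F test, with 1 mean per group over all 9 libraries and Benjamini-Hochberg adjustment over 15028 genes at 0.05. Standard errors are the log2 fold change divided by the root of F. Alternatives were DESeq2 1.42.0, limma 3.58.1 voom with quality weights, other scalings and filters, the replicate block, leaving out each library and, added after seeing the data, offsets fitted to gene length by lowess. All 55536 Ensembl IDs of the table were found in GENCODE vM21, whose positions are given. The test was first tried on simulated counts with the spread of all 9 libraries, for TDE against CTR. It called 2 of 84 genes given a 2-fold change (2.38%) and 66 of 113 given a 4-fold change (58.4%). It also called 5 unchanged genes. A member with a difference near 2-fold may thus miss the threshold.

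The members and gene lists were chosen with earlier results of these data known. Besides the members, the text names up to 4 called genes per list and direction with the lowest adjusted p, and the 2 genes nearest in pattern to Fos, Jun, Batf and Atf3. Marker lists for T and NK cells, B cells, fibroblasts and epithelial cells had 3, 4, 5 and 2 genes tested. Of these, 3, 3, 0 and 1 were lower and 0, 0, 1 and 0 higher in TDE against CTR. Of all genes, 9.34% were called lower and 7.57% higher there. Some genes and sequences that met these rules are not reported here.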

Additional observations from a re-analysis of the deposited data

How the results depend on the processing

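Members called in TDE against CTR numbered 4, and 2 with at least 10 reads asked of every library, with only the 6 libraries of the pair or with the replicate block, 7 with limma voom or length offsets, and 2 to 7 when 1 library was left out, 7 without control replicate 1 and 2 without any TDE replicate. In TDE against NE they numbered 4, and 2 with at least 10 reads, 7 in the pair alone or with length offsets, 10 with limma voom, and 3 to 7 with 1 library left out. Over all genes, TDE against CTR called 2541, and 4018 with DESeq2, 1152 in the pair alone, 1285 with the replicate block, 7886 with limma voom, and 1103 to 5263 with 1 library left out, the highest without control replicate 1. TDE against NE called 2095, and 6072 in the pair alone, 1175 with the replicate block, 8311 with limma voom, 3173 with length offsets, and 970 to 6223 with 1 library left out. NE against CTR called 0, and 6 with DESeq2, 18 with limma voom, and 0 to 3 with 1 library left out. The cause of these shifts was not tested, except that the filter at 10 reads removed Fosb and Fosl1.

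Signs turned for values that had passed no test. For Fos in TDE against CTR, limma voom gave -0.14 and leaving out 1 library -0.10 to 0.47. For Jund it gave 0.00, and -0.84 to 0.11. In NE against CTR limma voom gave -0.36 for Fos, -0.22 for Jun and 0.40 for Batf2, and length offsets gave -0.02 for Fosb and 0.10 for Batf2. Leaving out 1 library there gave -0.29 to 0.28 for Fos, -0.06 to 0.55 for Fosb, -0.05 to 0.49 for Fosl2, -0.17 to 0.26 for Jun, -1.01 to 0.01 for Batf and -0.50 to 0.35 for Batf2.

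Replicate numbers are shared between groups, but the labels do not say that they pair the libraries. Same-numbered libraries deviated together with correlations of -0.0348, -0.0562 and 0.0723 in TDE and CTR, 0.0267, -0.0392 and -0.0712 in TDE and NE, and -0.37, 0.185 and -0.585 in NE and CTR, so that the numbers were taken as names. With the replicate block, Junb (adjusted p = 0.066) and Fosb (0.0817) were no longer called in TDE against CTR, and Fosb (0.0598) in TDE against NE. Fosl1 in CTR and NE-treated and Fosb in TDE-treated libraries rest on few reads. With 3 libraries a group, a member that misses the threshold is not shown to be unchanged.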
